A study of Mus musculus with 30 samples.

Results

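Nuclear receptors are transcription factors that bind DNA through a conserved zinc-finger domain, and many of them are switched by a small lipid-soluble ligand such as a steroid, thyroid hormone, a retinoid, a bile acid or a fatty acid. Others, called orphan receptors, have no settled natural ligand and act as constitutive activators or repressors. Members bind as monomers, as homodimers or as heterodimers with a retinoid X receptor (RXR), and most recognise variants of the hexamer AGGTCA, so that the receptors present in a cell can meet at the same sites and compete for the same coregulators. Nr6a1 is itself an orphan nuclear receptor, and the 38 genes described here are listed members of the same family other than Nr6a1. Each of the 38 was found as 1 row among the 54134 rows of the gene count table. A receptor is called expressed where its mean reached 5 CPM or more in at least 1 group, CPM being the count scaled by the total of its library.

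The 30 libraries came from the mouse Bruce4 embryonic stem cell line as it was differentiated in culture towards neuromesodermal progenitors (NMPs), which supply both the spinal cord and the paraxial mesoderm of the trunk and tail. All 10 groups were grown without feeders in N2B27 medium with FGF2, and each held 3 replicates of wildtype or Nr6a1-/- cells. The d2 groups had FGF2 for 48 h, the d2.5 and d3 groups had in addition 12 h or 24 h of the Wnt pathway agonist CHIR99021, the d4 groups stayed in this condition for a further 24 h, and the d4G groups received Gdf11, a TGF-beta family ligand, for those 24 h. The Nr6a1-/- cells carry CRISPR/Cas9 deletions in an internal exon of both alleles and are 1 clone, so genotype and clone cannot be told apart. The supplements of this medium are commonly made with progesterone, corticosterone, triiodothyronine and a retinyl ester, which are ligands or ligand precursors of several receptors described here, and their levels were not measured.

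Library totals ran from 1570714 to 3688197 counts, with a median of 2366002, and a count of 0 in a library still allows 0.813 to 1.91 CPM (3 counts, counting error only). The libraries read the 3′ ends of transcripts, so levels are compared between groups for 1 gene and not ranked between genes. The level of Nr6a1 cannot check the genotype labels, because the deletions lie outside the 3′ end, and it was 167 to 187 CPM in wildtype and 257 to 322 CPM in Nr6a1-/- libraries at d3. The NMP markers T, Sox2, Nkx1-2, Cdx2, Cdx4, Fgf8 and Wnt3a were all detected in every group, with sums of 842 to 884 CPM in wildtype and 1100 to 1270 CPM in Nr6a1-/- libraries at d3. Among the d4 wildtype libraries, replicate 2 stood apart, with a sum of 711 CPM over 6 epiblast markers against 89.8 and 77.1 CPM in the other replicates, and the calls between genotypes at d4 and for Gdf11 in wildtype are also given without it. The labels do not say that replicates came from separate cultures, so p-values measure the spread between these libraries, which may be technical.

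Of the 38 receptors, 18 were expressed and 20 were not. The mean of 8 stayed at or above the limit in all 10 groups: the testicular receptors Nr2c1 and Nr2c2, the RXRs Rxra and Rxrb, the liver X receptor Nr1h2, the glucocorticoid receptor Nr3c1, the thyroid hormone receptor Thra and the orphan receptor Rorb. The other 10 passed it in 1 to 9 groups, namely Rora in 8, Rxrg and Ppard in 7 each, Nr1d2 in 6, Nr2f2 and Esrra in 4 each, Esrrb in 3, Pgr in 2, and Nr2f6 and Nr4a1 in 1 each. Between 10 and 14 receptors were expressed in any 1 group. The members nearest the limit were Nr2f6 and Esrra inside it, each with a highest group mean of 5.93 CPM, and Nr0b1 (4.90 CPM) and Nr4a2 (4.03 CPM) outside it. Of the 20 receptors that were not expressed, 6 reached a group mean of 1 CPM or more: Nr0b1, Nr4a2, Nr1d1 (3.86 CPM), Nr5a2 (2.35 CPM), Nr1h3 (2.15 CPM) and Hnf4a (1.76 CPM). The other 14 stayed below 1 CPM in every group, a level that this depth does not separate from a count of 0 in a single library. They were Nr5a1, Nr2f1, Nr2e1, Nr2e3, Nr1h4, Ppara, Pparg, Nr3c2, Thrb, Vdr, Esr1, Esr2, Esrrg and Nr4a3, of which Nr2e3, the photoreceptor-specific receptor, had a count of 0 in all 30 libraries.

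**Figure D1:**
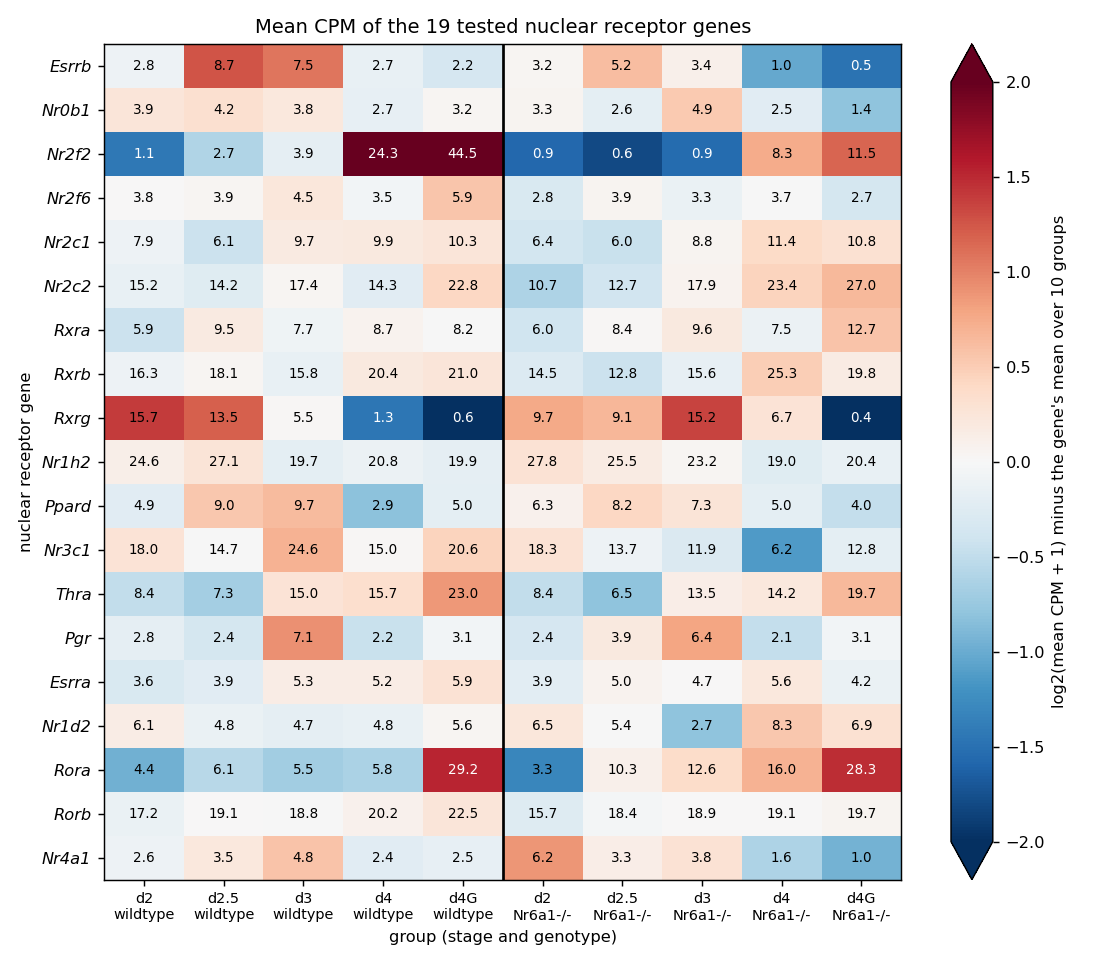
Mean CPM (numbers in the cells, n = 3 libraries) of the 19 tested nuclear receptor genes in the 10 groups, with wildtype stages on the left and Nr6a1-/- stages on the right. Colour shows log2(mean CPM + 1) minus the same gene's mean over the 10 groups and is comparable along a row only: Nr2f2, Rxrg and Rora span the widest range of colour, while Rorb stays between 15.7 and 22.5 CPM.

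A gene was tested where 2 libraries of the same group each held over 10 counts and over 2 CPM, which included all 18 expressed receptors and Nr0b1. Between genotypes, 6 of these 19 receptors differed at 1 stage or more at an adjusted p (FDR) below 0.05, and 13 differed at no stage. Nr2f2 was lower in Nr6a1-/- cells at 3 stages, Nr3c1 was lower at 2, Rxrg and Rora were higher at 2, Esrrb was lower at 1 and Nr2c2 was higher at 1. At d2, before CHIR99021, edgeR called 0 of 19 receptors and DESeq2 also 0, with 3 at an unadjusted p below 0.05, where 4.07% of all 12149 tested genes were called (1.35% higher and 2.72% lower in Nr6a1-/-). At d2.5 both tools again called 0 of 19, with 4 at an unadjusted p below 0.05, against 6.45% of all genes (2.86% higher, 3.59% lower). At d3 edgeR called 5 of 19 (26.3%), 2 higher and 3 lower, against 10.8% of all genes (4.47% higher, 6.30% lower). At d4 it called 5 of 19, 3 higher and 2 lower, against 18.9% of all genes (9.70% higher, 9.18% lower). At d4G it called 1 of 19 (5.26%), which was lower, against 7.90% of all genes (3.28% higher, 4.63% lower). The median log2 fold change of the 19 receptors was −0.16 at d3 and 0.10 at d4, against medians of 0.0024 and 0.0179 over all genes. In a test of whether the genotype difference itself varied over the 5 stages, 4 of 19 receptors (21.1%) passed, Nr2c2, Rxrg, Nr3c1 and Rora, against 11.9% of all genes.

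**Figure D2:**
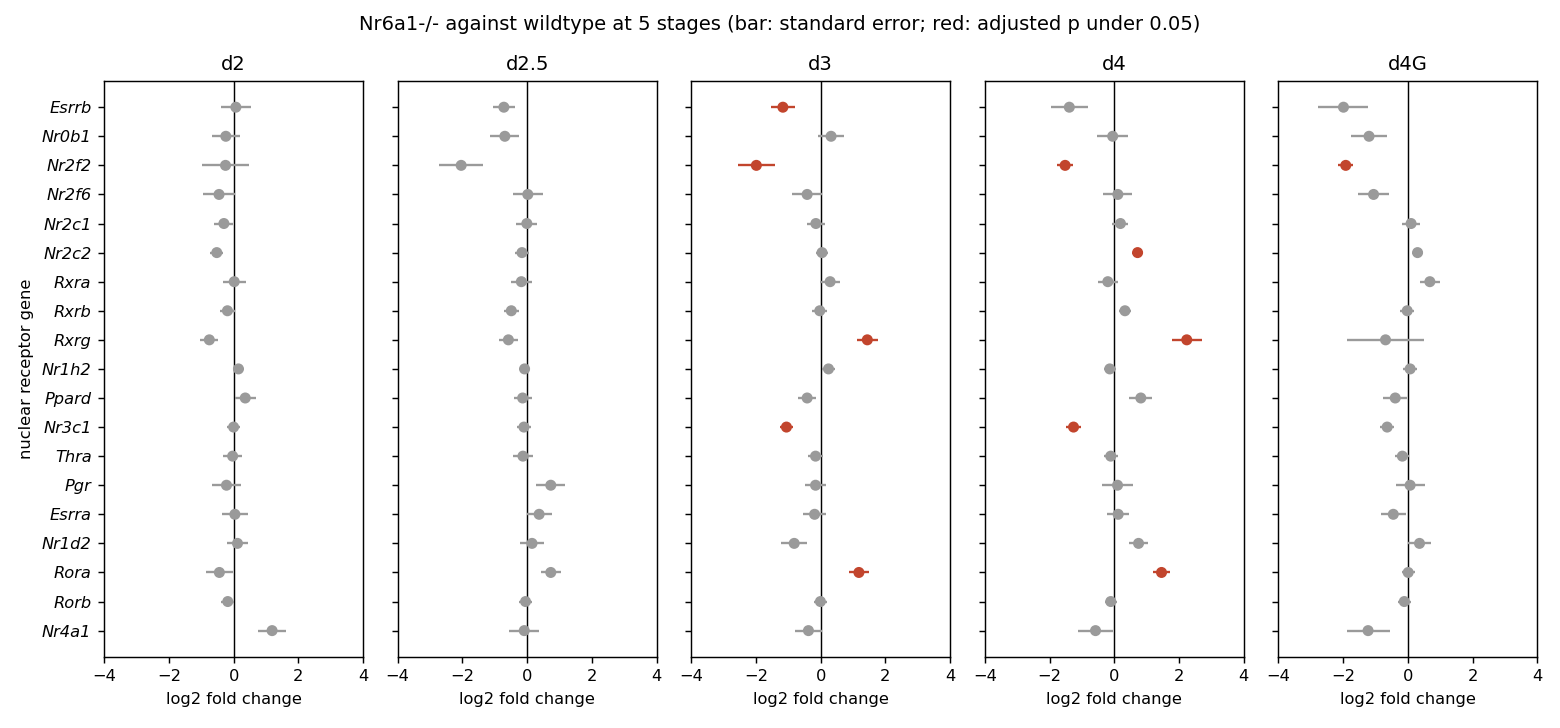
Log2 fold change of Nr6a1-/- over wildtype cells (points) with its standard error (bars) for the 19 tested nuclear receptor genes at the 5 stages. Red marks an FDR below 0.05: none of the receptors before d3, 5 receptors each for d3 and d4, and 1 for d4G.

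The start regions of the 3 receptors with the largest fitted genotype differences at d4, among the 19 tested, are printed so that the letters around their starts can be read beside the levels. RefSeq windows on GRCm38.p6 run from 250 bases before to 50 bases after an annotated start, and 35 of the 38 receptors were matched to 51 windows. AGGTCA, searched on both strands, lay in 9 of these 51 windows (17.6%), from 8 receptors, and in 16.3% of the 32851 windows of all genes. TCAAGGTCA, the hexamer with the extension that monomer-binding orphan receptors read, lay in 0 of the 51 windows and in 0.423% of all windows, and AGGTCAAGGTCA, the direct repeat without spacer that Nr6a1 is known to bind and that contains both shorter motifs, lay in 0 and in 0.00609%. Capitals mark AGGTCA. Nr2f2 has 1 window and none of these letters, and Rora has 1 window and none. The more 3′ of the windows of Rxrg holds AGGTCA with its first base 88 bases before the start. The other window of Rxrg (chr1:167598112-167598411), which is not printed, holds none. A match is a description of the sequence, and the absence of one concerns only these letters in these windows.
Rxrg, chr1:167618015-167618314, plus strand: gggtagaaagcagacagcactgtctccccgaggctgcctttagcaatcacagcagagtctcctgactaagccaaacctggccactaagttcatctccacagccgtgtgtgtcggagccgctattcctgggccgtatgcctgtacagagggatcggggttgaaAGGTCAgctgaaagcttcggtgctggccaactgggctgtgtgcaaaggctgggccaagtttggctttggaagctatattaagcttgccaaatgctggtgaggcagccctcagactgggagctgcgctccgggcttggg
Nr2f2, chr7:70366697-70366996, minus strand: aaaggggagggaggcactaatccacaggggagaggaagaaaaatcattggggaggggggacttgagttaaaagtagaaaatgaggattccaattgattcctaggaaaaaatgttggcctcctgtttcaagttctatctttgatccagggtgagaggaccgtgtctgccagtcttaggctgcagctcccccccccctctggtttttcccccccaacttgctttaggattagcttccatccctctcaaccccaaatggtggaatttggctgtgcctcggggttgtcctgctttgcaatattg
Rora, chr9:68653536-68653835, plus strand: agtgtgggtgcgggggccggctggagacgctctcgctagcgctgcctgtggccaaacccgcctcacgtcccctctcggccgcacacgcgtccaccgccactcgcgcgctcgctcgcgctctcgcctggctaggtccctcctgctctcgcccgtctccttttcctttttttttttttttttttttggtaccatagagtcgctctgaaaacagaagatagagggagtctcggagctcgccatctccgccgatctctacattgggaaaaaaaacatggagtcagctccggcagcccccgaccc

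Among the COUP-TF receptors, Nr2f2 (COUP-TFII, a largely repressive orphan receptor of mesenchyme, vessels and the caudal embryo, chr7:70351944-70366735 on GRCm38) had the most persistent difference. In wildtype libraries it stood at 0.421, 1.5 and 1.32 CPM at d2, at 3.36, 6.01 and 2.39 CPM at d3, and at 20.6, 23.3 and 29.0 CPM at d4. In Nr6a1-/- libraries it stood at 0.461, 1.46 and 0.743 CPM at d2, at 1.2, 0.430 and 1.15 CPM at d3, and at 10.6, 8.09 and 6.34 CPM at d4. The genotypes overlapped at d2 and were apart at d3 and at d4, with each Nr6a1-/- library below each wildtype library. The log2 fold change was −1.99 ± 0.57 (SE) at d3, with an FDR of 0.0177. The d4 value was −1.52 ± 0.25 (FDR 1.38e-05), and it was −1.58 without d4 wildtype replicate 2. The d3 call rested on few counts, since it was lost without d3 wildtype replicate 2 (−1.57, FDR 0.148) or without d3 Nr6a1-/- replicate 2 (−1.69, FDR 0.0879). With Gdf11, wildtype libraries reached 35.6, 47.3 and 50.8 CPM and Nr6a1-/- libraries 16.2, 10.8 and 7.48 CPM, a log2 fold change of −1.92 ± 0.23 (FDR 1.43e-07). At d2.5 the wildtype libraries, at 2.40, 2.58 and 3.07 CPM, also lay above the Nr6a1-/- libraries, at 0.383, 0.714 and 0.724 CPM, and the fold change of −2.04 ± 0.68 did not pass (FDR 0.0651). The difference was not shown to vary over the stages (FDR 0.504).

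Markers of other cell types moved with genotype in the same libraries as Nr2f2, and in bulk libraries fewer cells of a type and less RNA per cell cannot be told apart. Of 9 endoderm markers 6 were tested, and at d4 all 6 were lower in Nr6a1-/- cells, with sums of 51.5 to 69.2 CPM in wildtype and 5.92 to 10.5 CPM in Nr6a1-/- libraries. Cer1 and Afp had no count in either d4 group and Ttr had none in d4 Nr6a1-/- libraries. The endoderm sums were already apart at d2 (19.1 to 28.6 CPM against 3.29 to 9.66 CPM), where Nr2f2 overlapped, at d2.5 (30.3 to 43.5 CPM against 8.57 to 15.6 CPM) and at d3 (44.7 to 57.8 CPM against 8.40 to 13.7 CPM). At d4G they were 66.8 to 90.8 CPM against 6.65 to 11 CPM, with 5 of the 6 lower, Cer1 at 0 in both groups and Afp in the Nr6a1-/- group. Of 7 lateral mesoderm markers only 2 were tested, Foxf1 and Gata4, the latter also in the endoderm list. Both were lower at d4 and neither was called at d4G. The 7 summed to 10.1 to 21.2 CPM against 3.33 to 5.47 CPM at d4, with Hand2 at 0 in wildtype. At d4G they summed to 30.8 to 69.8 CPM against 24.2 to 58.5 CPM, so that the groups overlapped. There Hand2 was at 0 in both groups and Osr1 and Isl1 in the Nr6a1-/- group. Of 5 tested neural progenitor markers 3 were lower at d4, and of 5 tested fibroblast markers, which would show leftover feeder cells, 1 was lower (Thy1). Paraxial mesoderm markers went the other way, with 4 of 6 tested higher and 1 lower at d4. Their sums were 140 to 156 CPM in wildtype and 430 to 452 CPM in Nr6a1-/- libraries at d4, and 113 to 134 CPM against 187 to 198 CPM at d4G. Meox1 (means of 3.92 against 193 CPM) and Tbx6 (92.8 against 183 CPM) weighed most in the d4 sums. Over all genes 9.70% were higher and 9.18% lower at d4, and 3.28% were higher and 4.63% lower at d4G. The part of these cell types in the Nr2f2 result was not tested.

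The closest relatives of Nr2f2 were low, and a difference of like size could be missed at this depth. Nr2f1 (COUP-TFI) had 22 counts in the 15 wildtype and 11 in the 15 Nr6a1-/- libraries, or 1.99 times as many (95% counting interval 0.924 to 4.54). Nr2f6 (EAR2) ranged from 2.72 CPM to 5.93 CPM over group means and was not called between genotypes. Its d4G libraries did not overlap, at 10.1, 4.23 and 3.47 CPM in wildtype and 1.90, 3.18 and 3.08 CPM in Nr6a1-/- (−1.06 ± 0.48, FDR 0.211). Its row is uncertain, since the Ocel1 gene covers its 3′ end on the opposite strand and the use of strand is not stated, and it lies on chromosome 8, whose 655 tested genes had a median log2 fold change of −0.382 to −0.293 in Nr6a1-/- cells over the 5 stages. The tailless receptor Nr2e1, which marks neural stem cells of the forebrain, had 2 counts in each genotype.

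The testicular receptors, orphan receptors that bind AGGTCA repeats mainly as repressors, were expressed throughout. Nr2c1 (TR2) kept group means of 5.99 to 11.4 CPM and passed no test. Nr2c2 (TR4) was at 13.8, 15.5 and 13.6 CPM in d4 wildtype and at 19.6, 20.9 and 29.6 CPM in d4 Nr6a1-/- libraries. All of the latter were higher, with a log2 fold change of 0.72 ± 0.17 (FDR 0.00255), and 1 library carried much of it, since without d4 Nr6a1-/- replicate 3 the value was 0.54 (FDR 0.0560). At d2 the order was the other way, 16.0, 16.5 and 13.2 CPM in wildtype and 9.68, 10.2 and 12.3 CPM in Nr6a1-/- libraries, which did not pass alone (−0.52 ± 0.20, FDR 0.167). Without d4 wildtype replicate 2 the d4 value was 0.76 (FDR 0.00707). The difference varied over the 5 stages (FDR 0.0106). The 3′ end of Nr2c2 (chr6:92091390-92174294) is covered on the opposite strand by Mrps25, which had 6966 counts against 1250 for Nr2c2, so that its reads may not be told apart from those of its neighbour.

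**Figure D3:**
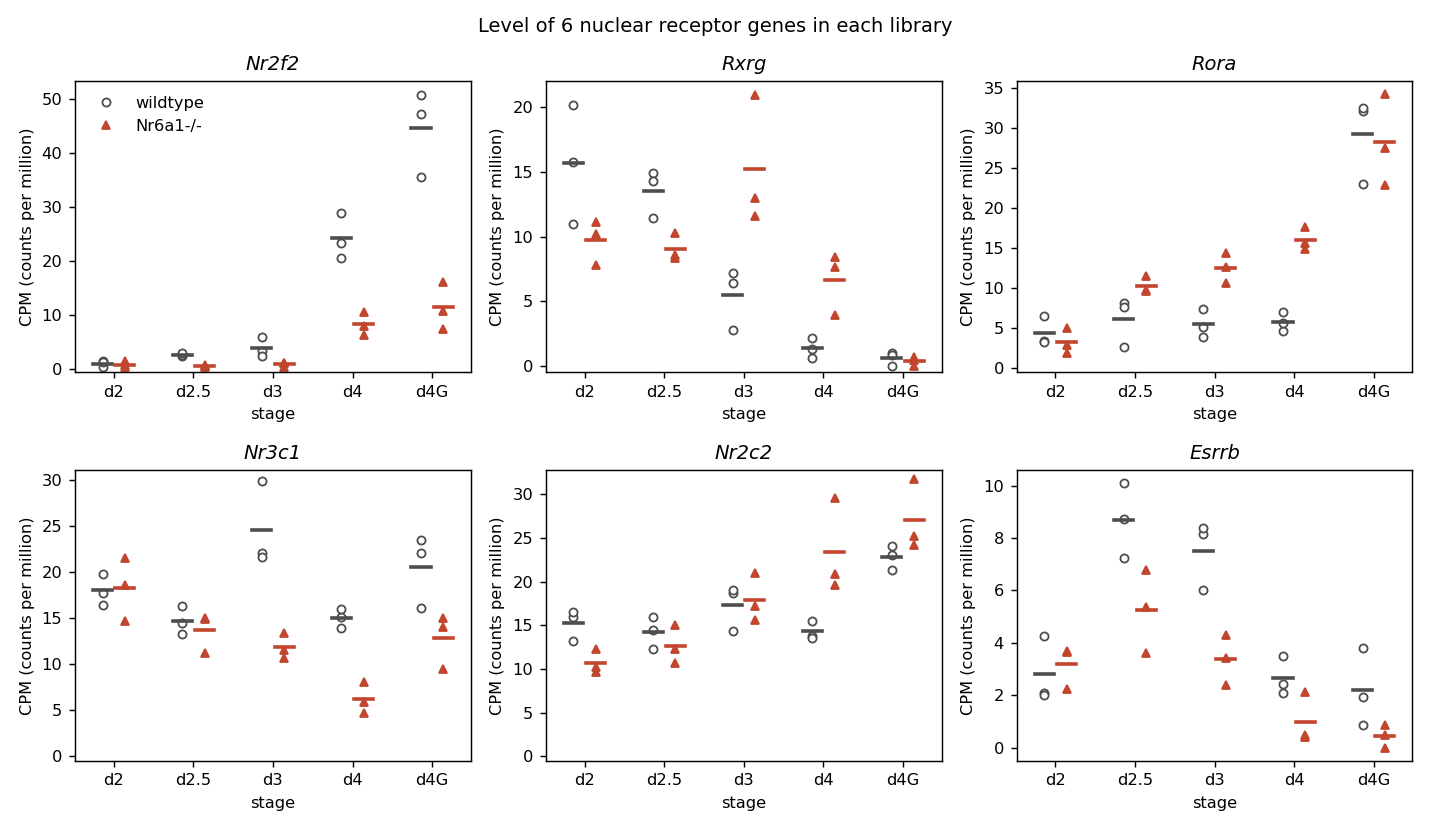
CPM (y axis, linear) of the 6 receptors called between genotypes in each library at the 5 stages (x axis), wildtype as open circles and Nr6a1-/- as filled triangles, with bars at group means (n = 3). Nr2f2 rises to 50.8 CPM in wildtype at d4G and stays at or below 16.2 CPM in Nr6a1-/- libraries, and the order of the Rxrg group means turns between d2.5 and d3.

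RXRs are the shared partners with which retinoic acid, thyroid hormone, vitamin D, liver X and peroxisome proliferator-activated receptors bind DNA. Rxra and Rxrb were expressed in all groups and passed no test in any of the 12 comparisons, with group means of 5.89 to 12.7 CPM and 12.8 to 25.3 CPM. The third RXR gene, Rxrg (chr1:167598384-167639623), behaved differently. In wildtype libraries it fell along the time course, from 20.2, 11 and 15.8 CPM at d2 and 14.9, 11.4 and 14.3 CPM at d2.5 to 7.20, 2.78 and 6.38 CPM at d3 and 1.26, 2.17 and 0.580 CPM at d4. Both later steps passed, with log2 fold changes of −1.28 ± 0.34 from d2.5 to d3 (FDR 0.00988) and −1.93 ± 0.49 from d3 to d4 (FDR 0.00394), although the first was −0.96 (FDR 0.0886) without d3 wildtype replicate 2.

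In Nr6a1-/- libraries Rxrg was at 11.1, 10.2 and 7.81 CPM at d2, 10.3, 8.57 and 8.33 CPM at d2.5, 11.6, 21.0 and 13.0 CPM at d3 and 3.91, 7.61 and 8.45 CPM at d4. It was thus above every wildtype library at d3 and d4, with log2 fold changes of 1.44 ± 0.33 (FDR 0.00247) and 2.24 ± 0.47 (FDR 0.000507), whereas the values at d2 (−0.75 ± 0.28, FDR 0.146) and d2.5 (−0.58 ± 0.30, FDR 0.293) were below 0 and did not pass. The variation of the genotype difference over stages was tested directly and passed (FDR 7.3e-05). Without d4 wildtype replicate 2, the library rich in epiblast markers, the d4 value was 2.85 (FDR 0.000586). The d4 Nr6a1-/- libraries themselves had epiblast marker sums of 87.2 to 96.4 CPM, with Otx2 at 0, near those of the other d4 wildtype replicates. At d3 the epiblast sums were apart, at 184 to 201 CPM in wildtype and 232 to 255 CPM in Nr6a1-/- libraries. Of 7 NMP markers, 3 were higher and 2 lower at d4, against 18.9% of all genes called, with Wnt3a (2.47) and Nkx1-2 (2.45) the most. The part of these cell types in the Rxrg result was not tested.

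Rxrg was close to absent in both genotypes with Gdf11, at 0.961, 0.845 and 0 CPM in wildtype and 0.475, 0.637 and 0 CPM in Nr6a1-/- libraries. Over the Nr6a1-/- groups there were 46 counts at d4 and 2 at d4G, or 19.5 times as many per total (counting interval 5.09 to 166, edgeR FDR 3.31e-05). In wildtype cells, where the gene was already low at d4, 13 and 4 counts gave a ratio of 2.30 (0.712 to 9.70, FDR 0.275). The fitted difference between these responses did not pass (FDR 0.296). Over the 10 group means, Rxrg was the tested receptor whose log2(CPM + 1) pattern was most like that of Nr6a1 (Pearson r 0.718), followed by Nr0b1 (0.474) and Ppard (0.433), and Nr2f2 (−0.585), Rora (−0.460) and Rorb (−0.447) were least like it. These correlations over groups that share libraries with both genotypes are descriptions only. From d2 to d3 in wildtype, Nr6a1 rose from 80.4, 82.1 and 82.6 CPM to 177, 187 and 167 CPM, while Rxrg fell.

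Steroid receptors are held by chaperones until hormone binds, and then act as homodimers. Nr3c1, the glucocorticoid receptor (chr18:39410545-39519421), was at 22.1, 21.7 and 29.9 CPM in d3 wildtype and at 11.6, 10.7 and 13.4 CPM in d3 Nr6a1-/- libraries. At d4 it was at 15.1, 16.0 and 13.9 CPM and at 4.69, 8.09 and 5.92 CPM. At both stages each Nr6a1-/- library lay below each wildtype library, by −1.06 ± 0.20 (FDR 0.00027) and −1.26 ± 0.24 (FDR 0.000132) on the log2 scale, and both calls held under each alternative that was run, with −1.23 at d4 without d4 wildtype replicate 2. At d2 the groups overlapped, with means of 18.0 ± 1.64 (SD, n = 3) and 18.3 ± 3.42 CPM, and the difference varied over the 5 stages (FDR 0.00549). With Gdf11 the libraries were at 23.5, 16.1 and 22.1 CPM in wildtype and 9.50, 14.0 and 15.0 CPM in Nr6a1-/- (−0.64 ± 0.21, FDR 0.0575), which passed with no scaling factors (−0.68, FDR 0.0435) and without d4G wildtype replicate 2 (−0.81, FDR 0.0201).

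All 8 listed target genes of the glucocorticoid receptor were tested. At d3 and at d4, 0 were higher and 2 were lower in Nr6a1-/- cells, against 10.8% (6.30% lower) and 18.9% (9.18% lower) of all genes. They were Zbtb16 (−3.89 ± 0.43 and −1.53 ± 0.24) and Klf9 (−0.73 ± 0.18 and −0.74 ± 0.22), and the median of the 8 was −0.156 and −0.0833. Zbtb16 encodes the transcription factor PLZF and Klf9 a Krüppel-like factor, and both answer to other signals as well. The part of Nr3c1 in the levels of its listed targets was not tested. At d4G 0 were higher and 2 lower, against 7.90% of all genes called (4.63% lower). They were Zbtb16 (−1.71 ± 0.29) and Fkbp5 (−0.45 ± 0.13), the latter a co-chaperone of the receptor.

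Of the other steroid and hormone receptors only Pgr and Thra were tested, and neither was called between genotypes at any stage. Pgr, the progesterone receptor, was seen mainly at d3, at 8.17, 5.55 and 7.58 CPM in wildtype and 5.61, 5.58 and 8.02 CPM in Nr6a1-/- libraries, and wildtype means were 2.38 CPM at d2.5 and 2.16 CPM at d4. The rise into d3 was 1.60 ± 0.41 (FDR 0.00738) and the fall after it −1.75 ± 0.38 (FDR 0.00076), and the rise was 1.21 (FDR 0.0775) without d2.5 wildtype replicate 1. Thra, the thyroid hormone receptor alpha gene, was at 4.32, 11.9 and 5.63 CPM in d2.5 wildtype and 14.9, 14.8 and 15.2 CPM in d3 wildtype libraries, a rise of 1.07 ± 0.28 (FDR 0.00867) that was lost without d2.5 wildtype replicate 1 (0.79, FDR 0.0972) or replicate 3 (0.93, FDR 0.0527). Thra and the clock receptor gene Nr1d1 overlap at their 3′ ends on opposite strands, with 945 and 120 counts in all, so that each is uncertain. The oestrogen receptors Esr1 and Esr2 had 9 and 13 counts over the 30 libraries, the vitamin D receptor Vdr 10, the mineralocorticoid receptor Nr3c2 11 and the thyroid hormone receptor Thrb 11, of which 9 were in wildtype and 2 in Nr6a1-/- libraries (ratio 4.47, counting interval 0.926 to 42.5).

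Esrrb, an orphan receptor that binds TCAAGGTCA and sustains the naive pluripotency network, was expressed briefly after CHIR99021, whose target pathway relieves repression of Esrrb in stem cells. In wildtype it moved from 2.10, 2.00 and 4.28 CPM at d2 to 10.1, 7.23 and 8.71 CPM at d2.5 (1.46 ± 0.39, FDR 0.0048), then from 8.17, 6.01 and 8.38 CPM at d3 to 2.10, 2.44 and 3.48 CPM at d4 (−1.41 ± 0.38, FDR 0.00603). At d3 the Nr6a1-/- libraries, at 2.40, 4.30 and 3.44 CPM, were all below wildtype. This difference of −1.17 ± 0.38 (FDR 0.0425) was marginal: its FDR was 0.0899 with DESeq2, 0.085 without the filter on low counts, and 0.0511 to 0.161 without either of the d3 wildtype replicates 1 and 3 or any of the d3 Nr6a1-/- replicates. At d4 the Nr6a1-/- values were 0.391, 0.476 and 2.11 CPM (−1.39 ± 0.58, FDR 0.0901), which passed without d4 Nr6a1-/- replicate 3 (−2.49, FDR 0.0284), and at d4G there were 15 counts in wildtype and 3 in Nr6a1-/- libraries, a ratio of 4.40 (1.25 to 23.7, FDR 0.12). The difference was not shown to vary over stages (FDR 0.308).

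Of the 13 listed partners of Esrrb in naive pluripotency, 10 were tested. The list includes 2 of the receptors described here, Nr0b1, which was tested, and Nr5a2, which was not. The number lower in Nr6a1-/- cells went from 1 at d2 and 3 at d2.5 to a maximum of 7 at d4, with 6 at d3 and 3 at d4G. The share of all genes called lower also rose, from 2.72% at d2 and 3.59% at d2.5 to 6.30% at d3 and 9.18% at d4, with 4.63% at d4G. Of the partners 1 was higher, Tbx3 at d4G (0.84 ± 0.15), against 3.28% of all genes. Zfp42, the pluripotency marker Rex1, was lower by −1.42 ± 0.28 at d3 and −1.58 ± 0.39 at d4, and Klf4, a Krüppel-like factor of the naive network, by −1.30 ± 0.34 and −1.18 ± 0.37. The list median was −0.885 at d3 and −1.25 at d4, against 0.0024 and 0.0179 for all genes. Nr0b1 (DAX1), which lacks the usual DNA-binding domain and represses its partners in stem cells, ranged from 1.36 CPM to 4.90 CPM over group means and passed no test. Nr5a2 (LRH-1), an activator of Pou5f1 in epiblast cells, had 54 counts in wildtype and 44 in Nr6a1-/- libraries, and the steroidogenic receptor Nr5a1 had 4 and 2.

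Rora, Rorb and the REV-ERB genes Nr1d1 and Nr1d2 belong to the receptors that bind an AGGTCA with an AT-rich flank, where ROR proteins activate and REV-ERB proteins repress clock genes. Rora (chr9:68653786-69388246) was at 3.84, 7.4 and 5.19 CPM in d3 wildtype and 14.4, 10.7 and 12.6 CPM in d3 Nr6a1-/- libraries. At d4 it was at 4.62, 5.69 and 6.96 CPM in wildtype and 14.9, 17.6 and 15.6 CPM in Nr6a1-/- libraries. The groups did not overlap at either stage, and the log2 fold changes were 1.18 ± 0.31 (FDR 0.0087) and 1.46 ± 0.27 (FDR 0.000116), the d3 call being lost without d3 wildtype replicate 1 (0.99, FDR 0.0610) and the d4 value being 1.41 without d4 wildtype replicate 2. Wildtype Rora was not shown to change up to d4: the 3 successive steps gave log2 fold changes of 0.47, −0.16 and 0.14, none of which passed. At d4G the genotypes met, with 32.2, 32.5 and 23.0 CPM in wildtype and 27.6, 22.9 and 34.3 CPM in Nr6a1-/- libraries (0.01 ± 0.21, FDR 0.982). The genotype difference varied over the stages (FDR 0.0061). Paraxial mesoderm markers, of which 6 of 7 were tested, also moved with genotype at d4 and d4G, where none was at 0. Their d4 sums were 140 to 156 CPM against 430 to 452 CPM, with 4 higher and 1 lower (18.9% of all genes called). Meox1 (3.92 against 193 CPM) and Tbx6 (92.8 against 183 CPM) weighed most, and Pax3 was lower. At d4G the sums were 113 to 134 CPM against 187 to 198 CPM, with 2 higher (7.90%). At d3 they were 22.7 to 26.4 CPM against 32.4 to 43.2 CPM. At d2 (42.1 to 53.1 against 24.4 to 27.1 CPM) and d2.5 (8.71 to 10.3 against 2.90 to 6.89 CPM) they were lower in Nr6a1-/- libraries. Endoderm sums at d4 and d4G, and lateral mesoderm sums at d4, went the other way in the same libraries, as given for Nr2f2. The part of these cell types in the Rora result was not tested.

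Rorb varied little, with group means of 15.7 to 22.5 CPM and genotype log2 fold changes from −0.18 to −0.01. Nr1d2 (REV-ERB beta) was at 4.32, 4.16 and 5.59 CPM in d3 wildtype and 2.40, 2.58 and 3.06 CPM in d3 Nr6a1-/- libraries (−0.82 ± 0.41, FDR 0.219) and had a fold change above 0 at d4 (0.75 ± 0.31, FDR 0.0864). Of 15 clock genes 11 were tested, and Bhlhe41, a repressor of the clock, was lower at d3 (−1.69 ± 0.23) and higher at d4 (1.39 ± 0.23) in Nr6a1-/- cells. At d4 2 more were higher, Bhlhe40 (0.89 ± 0.24) and Ciart, and at d2, d2.5 and d4G none of the 11 was called by edgeR in the comparison of genotypes.

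The lipid-sensing receptors that were expressed, Nr1h2 (liver X receptor beta, an oxysterol sensor) and Ppard (a fatty acid sensor), were not called between genotypes. Nr1h2 kept group means of 19 to 27.8 CPM and passed no test. Ppard was at 9.61, 11.1 and 8.38 CPM in d3 wildtype and 3.36, 2.44 and 2.90 CPM in d4 wildtype libraries, a fall of −1.70 ± 0.32 (FDR 0.000115) without overlap, and its d4 difference between genotypes was 0.82 ± 0.36 (FDR 0.111), which passed without d4 Nr6a1-/- replicate 1 (1.03, FDR 0.0479) and was 0.67 (FDR 0.290) without d4 wildtype replicate 2. Of 8 targets of peroxisome proliferator-activated receptors 6 were tested, and at d4 1 was higher and 1 lower in Nr6a1-/- cells: Acadl, a long-chain acyl-CoA dehydrogenase (2.05 ± 0.14), and Fabp3, a fatty acid binding protein (−1.99 ± 0.19). Both were called with the same signs at d3 and d4G. For this list and the next, the shares of all genes called were 10.8% at d3, 18.9% at d4 and 7.90% at d4G. Of 8 liver X receptor targets 6 were tested and at d4 2 were higher, Mylip, a ubiquitin ligase for the LDL receptor (1.09 ± 0.18), and Scd2, a fatty acid desaturase (0.44 ± 0.09). The list went both ways at d3 and d4G, with 1 higher and 1 lower at each, the lower one being Abcg1, a cholesterol exporter (−1.54 at d3 and −1.43 at d4G). The liver X receptor Nr1h3 had 46 and 45 counts, the fatty acid receptors Ppara and Pparg 13 and 7 and 6 and 1, and the bile acid receptor Nr1h4 2 and 0, in wildtype and Nr6a1-/- libraries.

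Hnf4a, a fatty acid-binding receptor of visceral endoderm, liver and gut, was below the limit for an expressed gene and was almost wholly in wildtype libraries. The wildtype libraries held 36 counts, spread over 11 of the 15, and the Nr6a1-/- libraries held 1, which is 35.8 times as many per total (counting interval 6.03 to 1450). At d4 the wildtype libraries were at 2.10, 0.271 and 2.90 CPM, the middle value being replicate 2, and the Nr6a1-/- libraries had no count. The 16 wildtype counts were 3.93-fold above a floor of 3 counts over the Nr6a1-/- group. This value includes no error on the 16 counts and no spread between libraries. It did not pass the filter, and without a filter its FDR in edgeR was 0.0099 at d4 and 0.242 to 0.826 at the other stages. The endoderm marker sums of the same d4 libraries were those given for Nr2f2, and their part in the Hnf4a result was not tested.

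Of the remaining receptors, Nr4a1, an immediate early orphan receptor that is induced within minutes of a stimulus, was at 3.79, 2.5 and 1.64 CPM in d2 wildtype and 8.75, 5.48 and 4.46 CPM in d2 Nr6a1-/- libraries, without overlap (1.19 ± 0.43, FDR 0.116). At d4G the order was the other way, also without overlap, at 2.40, 2.96 and 2.17 CPM in wildtype and 0.95, 1.27 and 0.88 CPM in Nr6a1-/- libraries (−1.23 ± 0.66, FDR 0.319). Nr4a2 and Nr4a3, its paralogues, had 91 and 76 and 4 and 2 counts in wildtype and Nr6a1-/- libraries. Of 16 other immediate early genes 13 were tested, and 1 was higher at d2, Egr1 (0.99 ± 0.21), against 4.07% of all genes called. At d2.5 2 were lower, and at d3 1 was higher and 4 were lower, against 6.45% and 10.8% of all genes. At d4 1 was higher, Ier3 (2.57 ± 0.49), and 8 were lower, against 18.9% of all genes. Among the 8 were the AP-1 subunits Fosl1 (−2.45 ± 0.64) and Fos (−1.28 ± 0.32). At d4G 1 was higher, Btg2 (0.56 ± 0.083), and 5 were lower, Junb the most (−1.81 ± 0.225), against 7.90% of all genes. Esrra, an oestrogen-related receptor that drives mitochondrial genes, ranged from 3.60 CPM to 5.93 CPM over group means, passed no test, and shares its 3′ end with Trmt112 on the opposite strand. Esrrg had 2 and 3 counts. Of the 20 coregulators listed, which receptors recruit to activate or repress, 18 were tested. At d4 4 were higher and 1 lower, by at most 0.53 in size (Tbl1xr1, 0.53 ± 0.17), against 18.9% of all genes called. Ncoa1 was lower at d3 (−1.05 ± 0.33) and higher at d4G (1.03 ± 0.285), the only coregulator called at either stage, against 10.8% and 7.90% of all genes. At d2.5 2 were higher, Ncoa3 the most (0.56 ± 0.16), and at d2 0 were called, against 6.45% and 4.07% of all genes.

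Along the wildtype course, edgeR called 1 of 19 receptors from d2 to d2.5 (5.26%), Esrrb, which rose, against 25.4% of all genes (13.3% higher, 12.1% lower), with 2 of 19 at an unadjusted p below 0.05. From d2.5 to d3 it called 4 of 19, with Nr3c1 (0.77 ± 0.20, FDR 0.00814), Thra and Pgr higher and Rxrg lower, against 11.5% of all genes (5.91% higher, 5.56% lower). From d3 to d4 it called 6 of 19 (31.6%), with Nr2f2 higher (2.69 ± 0.29, FDR 6.07e-09) and Esrrb, Rxrg, Ppard, Nr3c1 (−0.68 ± 0.18, FDR 0.00647) and Pgr lower, against 21.1% of all genes (9.77% higher, 11.3% lower). None of these 6 calls was lost without d4 wildtype replicate 2. Nr3c1 thus peaked at d3 in wildtype cells, and both of its steps were lost without d3 wildtype replicate 3 (0.60, FDR 0.0930, and −0.51, FDR 0.0922).

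Gdf11, which brings on the switch from trunk to tail in the embryo, was compared by d4G against d4 within each genotype. The sample descriptions give each d4 wildtype library the barcode of the d4G wildtype library of the same replicate number. The same holds for replicate 1 of Nr6a1-/-, and d4 Nr6a1-/- replicates 2 and 3 carry the barcodes of those replicates at d3. Barcodes were added before pooling, so such libraries cannot have shared a pool. The part of pools in these responses was not tested. In wildtype cells 3 of 19 receptors were called (15.8%), all higher, against 28.8% of all genes (14.3% higher, 14.5% lower). They were Rora (2.22 ± 0.25, FDR 1.05e-08), Nr2f2 (0.77 ± 0.19, FDR 0.00211) and Nr2c2 (0.57 ± 0.18, FDR 0.0118), the last of which went from 13.8, 15.5 and 13.6 CPM to 23.1, 24.1 and 21.3 CPM and had an FDR of 0.0647 without the filter on low counts. Without d4 wildtype replicate 2 these responses were 2.17, 0.72 and 0.62, and each was still called. In Nr6a1-/- cells 3 of 19 were called, Rora (0.77 ± 0.22, FDR 0.0129) and Nr3c1 (0.98 ± 0.26, FDR 0.00657) higher and Rxrg lower, against 18.0% of all genes (8.45% higher, 9.59% lower). Without d4G Nr6a1-/- replicate 3 only Rxrg was called, with Rora at 0.64 (FDR 0.0937) and Nr3c1 at 0.86 (FDR 0.0514). With no scaling factors the calls among all genes turned towards higher, 2295 of 3633 in wildtype against 1741 of 3498 with the factors and 1306 of 2189 in Nr6a1-/- against 1026 of 2191. Every call among the receptors was kept, and Thra was called in wildtype in addition (0.55, edgeR FDR 0.0442). Thra was also called there without d4G wildtype replicate 3 (0.67, edgeR FDR 0.0219).

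The difference between genotypes in the response to Gdf11 was tested for each receptor, and 1 of 19 passed, Rora, against 2.66% of all genes (1.17% higher, 1.49% lower in Nr6a1-/-). Its response was smaller in Nr6a1-/- cells by −1.44 ± 0.34 on the log2 scale (FDR 0.0118), and the d4 libraries, which enter both this test and the genotype comparison at d4, were those in which the genotypes differed. For Nr2f2 the difference in response was −0.40 ± 0.36 (FDR 0.664), for Nr2c2 −0.42 ± 0.24 (FDR 0.431) and for Nr3c1 0.63 ± 0.33 (FDR 0.368), so that these responses were not shown to differ between genotypes.

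**Figure D4:**
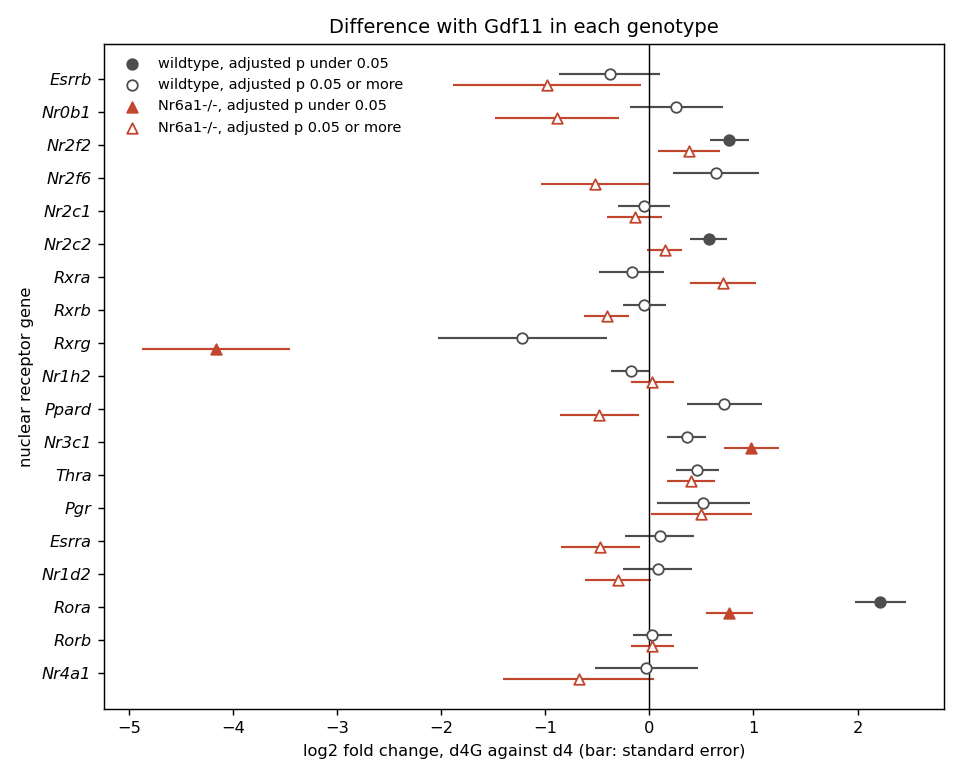
Log2 fold change of d4G over d4 (x axis) with its standard error (bars) for the 19 tested nuclear receptor genes, wildtype as circles and Nr6a1-/- as triangles, filled where the FDR was below 0.05. Rora is filled in both genotypes, at 2.22 in wildtype and 0.77 in Nr6a1-/- cells, and the Rxrg point of the Nr6a1-/- cells rests on 2 counts at d4G.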

How the data were processed

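RNA was measured in 30 libraries of 10 groups with 3 replicates each, grouped by the sample labels. The authors primed cDNA at the poly(A) tail with barcoded primers that also carry unique molecular identifiers, aligned reads with STAR to mm10 (per the submitters' processing notes, which also name edgeR) and deposited raw counts per gene and library. The counting tool, annotation, use of strand and collapsing of identifiers are not given in the sources used here. Intervals and the limits behind a count of 0 cover counting error only. The deposited tables of genes that differ between genotypes hold the authors' log2 fold changes, p-values and FDR and were not used.

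The members, gene lists and tests were chosen with earlier results of these data known. Genes with over 10 counts and over 2 CPM in 2 libraries of the same group (12149; at least 99.2% of each library's counts) were scaled by TMM and fitted as 1 model of 10 groups with 20 residual degrees of freedom in edgeR 4.0.16 (R 4.3.3; glmQLFit, glmQLFTest, 2-sided). Benjamini-Hochberg FDR was taken over all tested genes and called below 0.05. Standard errors are the log2 fold change over the root of F. Each CPM divides a count by its library total. Counting intervals are exact binomial (95%). The fit was tested on simulated data. All 38 members are named, with values by library for those called between genotypes or with Gdf11, and at most 3 genes per direction of each list. Positions are from GENCODE M21 (GRCm38) and windows from RefSeq. Alternatives were RLE or no scaling factors, no filter, DESeq2 1.42.0, only the libraries compared, a replicate block, leaving out each replicate, and other CPM limits.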

Additional observations from a re-analysis of the deposited data

Results flagged for a closer look

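The response to Gdf11 differed between genotypes for Rora, by −1.44 on the log2 scale (Nr6a1-/- minus wildtype), and all 18 alternatives that gave a value kept this call. The difference between genotypes varied over the 5 stages for Rxrg (FDR 7.3e-05), Nr3c1 (FDR 0.00549), Rora (FDR 0.0061) and Nr2c2 (FDR 0.0106), and each of these was kept in all 35 alternatives. Single outlying libraries were not tested for within groups of 3.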

How the results depend on the processing

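Of 29 calls on receptors, which leave out the 4 calls for variation over the stages, 17 were kept under every alternative run, 12 were lost under 1 or more, and 0 changed sign. RLE factors and no scaling factors each kept 29 of 29, no filter kept 27, DESeq2 28 and the fits on only the libraries compared 28 of 28. The replicate block kept 29 of 29 and gave the same counts of 5 receptors at d3, 5 at d4 and 1 at d4G. Libraries of the same number did not deviate together (r from −0.111 to 0.0559 over 15 pairs, 0 of them above 0.1), so the numbers were not taken to pair the samples. With no scaling factors 2 receptors were called at d4G and 2 in wildtype from d2 to d2.5, and Thra was added for Gdf11 in wildtype. At a limit of 10 CPM, 11 receptors were expressed. Leaving out 1 library at a time gave 3 to 4 calls at d3, 5 to 6 at d4, 1 to 2 at d4G, 2 to 4 in wildtype from d2.5 to d3, 5 to 6 from d3 to d4, 3 to 4 for Gdf11 in wildtype, 1 to 3 for Gdf11 in Nr6a1-/-, 1 to 1 for its difference, 4 to 5 for the variation over stages, and 0 to 0 at d2 and d2.5. The fits on only the libraries compared called 1398 genes at d4 against 2294, and 212 against 323 for the difference in response to Gdf11, with fewer residual degrees of freedom. With no scaling factors 218 of 495 calls at d2 were higher against 164 of 494, and 2052 of 3113 from d2 to d2.5 against 1614 of 3086, and with no filter 484 of 834 at d2.5 against 348 of 784. Leaving out 1 library gave as few as 304 calls over all genes at d2 (Nr6a1-/- replicate 1; 311 without replicate 2 and 306 without wildtype replicate 3), 478 of 784 at d2.5 (wildtype replicate 1; 492 without replicate 2 and 495 without Nr6a1-/- replicate 1), 871 of 1308 at d3 (wildtype replicate 3) and 1487 at d4 (Nr6a1-/- replicate 3), and for the difference in response to Gdf11 823 without d4 Nr6a1-/- replicate 1 and 205 without replicate 3. Depth limits the 14 receptors below 1 CPM, which did not pass the filter and for which counting intervals are wide.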
